A study of Mus musculus with 12 samples.

Results

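The 42 genes described here encode extracellular metalloproteinases and their inhibitors. They were taken by name from these families, with earlier results of these data known but no measured value in the rule, and comprise 10 matrix metalloproteinases (Mmp), 10 disintegrin metalloproteinases (Adam), 18 disintegrin metalloproteinases with thrombospondin repeats (Adamts) and the 4 tissue inhibitors of metalloproteinases (Timp). A list of 25 other genes of these families and of the related Adamtsl genes is described at the end, of which 9 or 10 were abundant enough to test, against 39 or 40 of the 42. Each of the 42 matched 1 of the 54532 genes counted by RNAseq in 12 samples of mouse brainstem progenitors, cells grown as floating neurospheres in serum-free medium with EGF and FGF2. Pups of the C57BL/6 background, isolated between postnatal days 3 and 5, carried Nestin TVA, in which the nestin promoter drives the receptor for the avian RCAS virus, so that the virus enters cells that use this promoter. All groups also carried floxed p53, and the labels name no Cre virus for these cultures.

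The samples formed 4 groups of 3, human *ACVR1* WT, human *ACVR1* R206H, *ACVR1* WT with H3.1K27M, and *ACVR1* R206H with H3.1K27M, all delivered by RCAS vectors. *ACVR1* encodes a type I receptor of the bone morphogenetic protein (BMP) pathway that R206H makes overactive, and H3.1K27M is a histone H3.1 whose lysine 27 is replaced by methionine. Both mutations occur in diffuse intrinsic pontine glioma, a childhood brainstem tumour. The 12 samples contained no culture without an *ACVR1* vector and none with a vector for unmutated H3.1, so that every comparison was between cells that carried extra *ACVR1*. For other assays of such neurospheres the study's methods count lines from separate litters and pair them, but the labels tie no RNAseq sample to a litter and do not say whether the 3 samples of a group were separate cultures or animals, so p values measure only the spread between these samples, which may be technical.

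Mmp, Adam and Adamts proteases cut proteins outside the cell with a zinc ion in their active site. Many MMPs degrade collagens and laminins of the extracellular matrix, several ADAMs release the outer parts of membrane proteins such as Notch ligands and growth factor precursors, and ADAMTS enzymes cleave proteoglycans such as versican or trim procollagens. TIMPs bind the active site and block these enzymes, and in the brain the balance bears on migration of progenitors and on remodelling of perineuronal matrix. RNA levels say nothing of whether a protease was secreted, activated or inhibited.

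Total counts lay between 19315020 and 26456257 per sample. Neural progenitor markers (8 genes, Nes, Sox2 and Vim among them, all above 1 CPM) summed to between 5650.9 and 7690 CPM (the normalised read count, scaled to a common library size) over the 12 samples, against at most 21.1 CPM for 8 microglial, 15.5 CPM for 6 endothelial, 35.0 CPM for 8 fibroblast and mural, 55.9 CPM for 4 choroid plexus and 58.2 CPM for 6 neuron markers. The *ACVR1* WT samples differed among themselves far more than those of the other groups, with a biological coefficient of variation of 0.273 against 0.0451 to 0.0594, and *ACVR1* WT replicate 1 stood apart from replicates 2 and 3. Counts and calls that use this group are therefore given with and without that sample. In bulk samples, fewer cells of a type and less RNA per cell cannot be told apart.

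Levels between genes were compared as CPM per kilobase of exon, averaged over the 12 samples. The most abundant members were Adam9 at 81.3, Adam10 at 66.7, Timp2 at 64.1 and Mmp15 at 63.7 CPM per kilobase, followed by Timp4 at 42.9 and Timp3 at 42.2. Adamts4 was highest within its family at 11.7 CPM per kilobase. These orders differed between groups. With H3.1K27M, Mmp15 at 82.8 and Timp2 at 76.4 CPM per kilobase were above Adam9 at 70.1 in *ACVR1* WT, and Timp2 at 83.9, Mmp15 at 78.4 and Adam10 at 72.7 were above Adam9 at 71.6 in *ACVR1* R206H. Timp3 averaged 72.2 and 61.2 CPM per kilobase without H3.1K27M but 16.6 and 18.6 with it, and Adamts1 at 16.1 was above Adamts4 at 7.93 in *ACVR1* R206H with H3.1K27M. Mmp9, a gelatinase, never exceeded 11 counts in a sample and Adamts18 never exceeded 5. Neither of these was tested, and Adamts19 was tested only in some comparisons, because genes with a mean normalized count under 10 were left out of each fit.

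Sequences upstream of the start site are shown for Adamts1, which had the smallest p value for R206H against WT in the presence of H3.1K27M, for Timp3, which had the lowest log2 fold change with H3.1K27M, and for Timp1 and Timp4, which rose with R206H in the presence of H3.1K27M. Up to 250 bases before the start are printed 5′ to 3′ from RefSeq (GRCm38.p6), in lower case with each CpG in capitals:
Adamts1: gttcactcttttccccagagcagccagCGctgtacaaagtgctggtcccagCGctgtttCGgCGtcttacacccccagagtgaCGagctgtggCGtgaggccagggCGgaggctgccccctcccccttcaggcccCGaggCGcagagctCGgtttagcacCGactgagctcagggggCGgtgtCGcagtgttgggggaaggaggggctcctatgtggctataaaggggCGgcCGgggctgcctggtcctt
Timp1: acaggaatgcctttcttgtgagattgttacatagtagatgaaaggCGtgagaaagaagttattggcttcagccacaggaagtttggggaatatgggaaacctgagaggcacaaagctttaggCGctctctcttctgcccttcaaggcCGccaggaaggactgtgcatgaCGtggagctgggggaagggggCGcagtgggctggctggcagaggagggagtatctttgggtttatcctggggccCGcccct
Timp3: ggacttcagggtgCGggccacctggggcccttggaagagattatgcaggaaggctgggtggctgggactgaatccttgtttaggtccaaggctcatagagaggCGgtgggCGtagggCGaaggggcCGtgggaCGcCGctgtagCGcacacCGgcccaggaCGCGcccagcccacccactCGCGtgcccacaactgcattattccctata
Timp4: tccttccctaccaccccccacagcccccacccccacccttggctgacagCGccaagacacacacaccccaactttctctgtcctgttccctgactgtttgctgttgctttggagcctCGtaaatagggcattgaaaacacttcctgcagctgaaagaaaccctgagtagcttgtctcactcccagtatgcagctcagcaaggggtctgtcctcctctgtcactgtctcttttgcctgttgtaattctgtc
The printed windows lay at chr16:85803114-85803363 (minus strand), chrX:20869916-20870165 (plus strand), chr10:86300162-86300371 (plus strand) and chr6:115252206-115252455 (minus strand). The ratio of observed to expected CpG over the whole window was 0.562 for Adamts1, 0.352 for Timp1, 0.672 for Timp3 and 0.125 for Timp4. Of the 42 members, 26 had an upstream window in the table, 28 windows in all, and 16 of the 28 had a ratio above 0.6, which 34.0% of all 32841 windows had. GGCGCC, a GC-rich SMAD site that reads the same on both strands, was present in 6 member windows (Adam17, Adam19, Adamts14, Adamts2, Adamts9 and Mmp11) and in 9.59% of all windows. TGANTCA, an AP-1 site searched on both strands, was present in 2 (Adam19 and Mmp3) and in 6.75% of all. GTCTAGAC, the SMAD palindrome, was in none of the 28 and in 0.167% of all, and TTCNNNGAA, a STAT site, in none and in 7.02%.

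The first comparison asked whether *ACVR1* R206H changed these genes in cells without H3.1K27M. None of the 39 members tested passed an adjusted p of 0.05 in the quasi-likelihood F test of edgeR, adjusted by Benjamini-Hochberg over all genes, and neither did any gene (0% of 15066). At an unadjusted p under 0.05 there were 2 members, Adamts1 and Adamts8, and 534 genes, and DESeq2 called 0 members and 26 genes. Without *ACVR1* WT replicate 1, 13 members passed, 10 higher and 3 lower, 33.3% of 39 against 23.1% of 15087 genes. Those higher were Timp1 (0.66), Timp4 (0.78), Adamts1 (0.49), Adamts4 (0.64), Adamts6 (0.45), Adamts14 (2.52), Adam10 (0.34), Adam12 (1.87), Adam19 (0.83) and Mmp15 (0.62), each as log2 fold change. Those lower were Timp3 (-0.54), Adam11 (-0.68) and Adamts9 (-0.63). The outcome of this comparison therefore depended on 1 of the 3 *ACVR1* WT samples. In replicates 1, 2 and 3 of that group, markers summed to 4.33, 13.6 and 21.1 CPM for microglia, 26.8, 58.2 and 53.1 for neurons and 15.5, 5.78 and 5.05 for endothelium. Without replicate 1, R206H lowered 4 of 6 microglial and 1 of 4 neuron markers tested and raised 1 of 2 endothelial markers. Of 8 progenitor markers 2 rose and 2 fell. The part of these markers in the result was not tested.

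In the presence of H3.1K27M, 17 of 40 members differed between *ACVR1* R206H and WT, 12 higher and 5 lower, 42.5% against 20.3% of the 15672 genes tested (11.4% higher and 8.95% lower). All 4 TIMPs rose, 5 of 10 Adam genes rose and 1 fell, 1 of 17 Adamts genes rose and 4 fell, and 2 of 9 Mmp genes rose. Marker sums were also higher with R206H there, without overlap between the groups, at 19.1 to 21.04 and 29.8 to 35.0 CPM for fibroblast and mural cells, 4.94 to 5.16 and 6.31 to 8.74 CPM for endothelium, 1.33 to 1.92 and 2.10 to 3.32 CPM for microglia and 22.3 to 23.6 and 26.1 to 28.3 CPM for neurons. Of the microglial markers 1 was abundant enough to test, P2ry12, which averaged 1.07 and 2.11 CPM. The neuron markers moved apart, as Tubb3 (0.92) and Syt1 (1.06) rose and Gad1 fell (-0.90, adjusted p = 0.00029 by edgeR's test). Neural progenitor markers summed to 6508 to 6875 and 7190.3 to 7689.9 CPM. Of these 8 genes 5 rose, with Vim (0.51) the most abundant of them, and Nes fell (-0.26, adjusted p = 0.00044 by edgeR's test). Sums of choroid plexus markers overlapped, and the part of all these markers in the results was not tested. Most differences were small: only Adamts1 passed a log2 fold change of 1, and the median over the 40 members was 0.09 against 0.00 over all genes. With all 12 samples in 1 fit, where the spread of the *ACVR1* WT group is shared with these samples, 5 of the 17 passed (Adam23, Adamts1, Adamts12, Adamts17 and Mmp28) and none of the TIMPs did (adjusted p from 0.49 to 0.82). Leaving out 1 sample at a time gave 15 to 17 members past the threshold, among 1915 to 2966 genes against 3185 with all samples. These counts can hold members outside the 17, and 12 of the 17 passed every time. The other 5 were Mmp11, Adam11, Adam22, Adamts17 and Timp3. With *ACVR1* WT replicate 1 left out, 13 members were called for R206H without H3.1K27M. Of these, 4 were called in the same direction with H3.1K27M (Adam10, Adamts1, Timp1 and Timp4) and 4 in the opposite one (Adam11, Adam12, Adamts4 and Timp3).

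**Figure D1:**
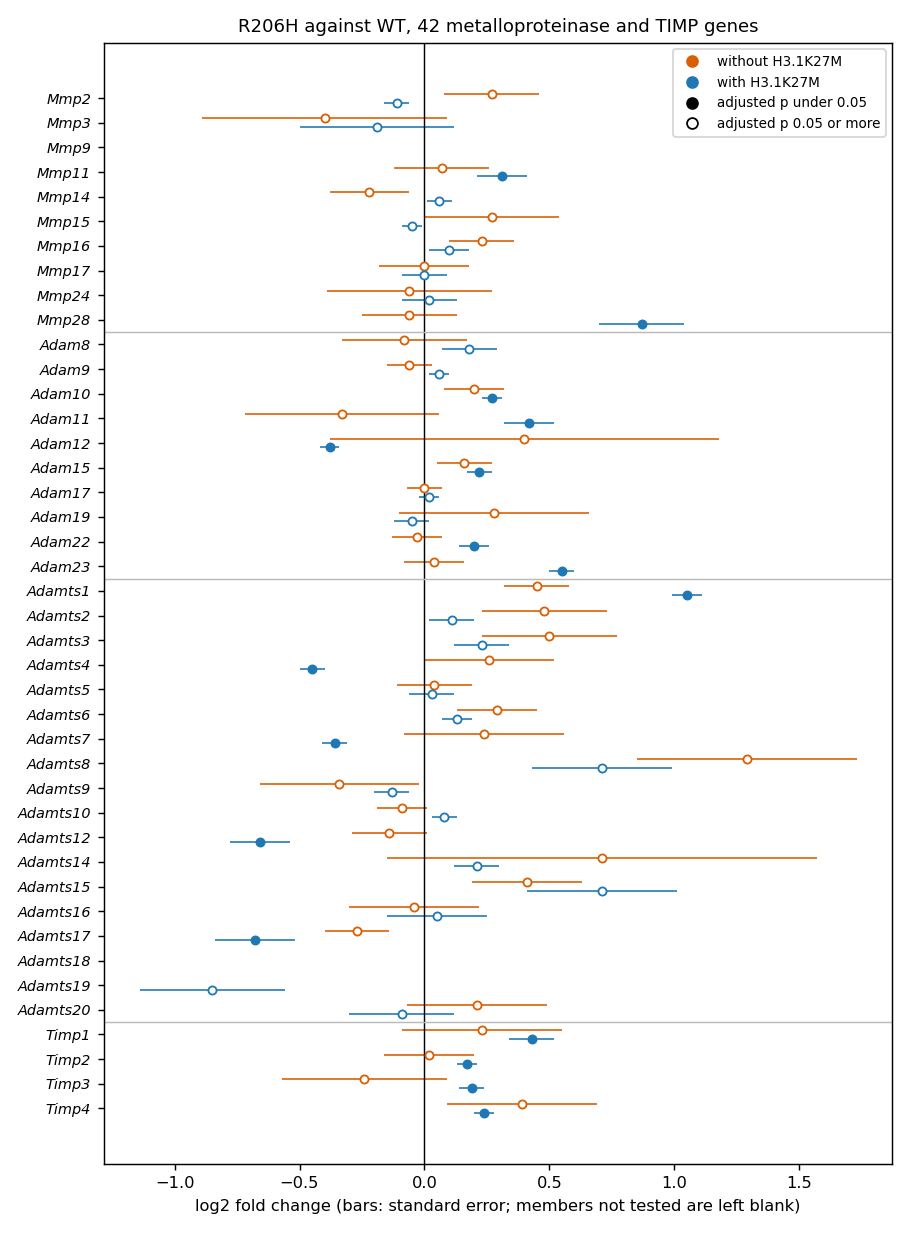
Log2 fold change of *ACVR1* R206H against *ACVR1* WT (horizontal axis) for the members, in family order, without H3.1K27M (orange) and with it (blue). Bars are standard errors and filled points have an adjusted p under 0.05. Filled points occur only with H3.1K27M, 17 in all, with Adamts1 at 1.05 farthest to the right of them, and the bars without H3.1K27M are longer for most members.

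The effect of H3.1K27M was the difference between samples with and without it at the same *ACVR1* vector. With *ACVR1* WT, 14 of 40 members differed, 10 higher and 4 lower, 35.0% against 23.0% of 15385 genes (12.6% higher and 10.4% lower), and the median log2 fold change was 0.25 over the members and -0.02 over all genes. With *ACVR1* R206H, 31 of 39 differed, 18 higher and 13 lower, 79.5% against 56.5% of 15482 genes (29.1% higher and 27.4% lower), with medians of 0.08 and 0.00. With all 12 samples in 1 fit, 22 of the 31 passed, and Mmp11, Mmp14, Mmp24, Adam11, Adam12, Adamts5, Adamts7, Adamts8 and Adamts14 did not (adjusted p from 0.068 to 0.31 by edgeR's test). Leaving out 1 of the 6 samples at a time gave 27 to 30 past the threshold, among 7589 to 8350 genes against 8745 with all samples. Calls for Mmp11, Mmp14, Mmp24, Adamts5 and Adamts8 were each lost without at least 2 of these samples in turn (adjusted p from 0.052 to 0.12 by edgeR's test). These 2 comparisons share no sample. Of the 14, 12 differed in the same direction with *ACVR1* R206H, which is 85.7% of the 14 and 38.7% of the 31, and none in the opposite direction. They were Mmp2, Mmp3, Mmp15, Adam15, Adam23, Adamts1, Adamts2, Adamts3 and Timp2, which rose, and Adam9, Adamts9 and Timp3, which fell. Without *ACVR1* WT replicate 1, 24 of 40 members passed with *ACVR1* WT, 16 higher and 8 lower, 60% against 52.6% of 15432 genes. They held all 14, with log2 fold changes of 3.30 for Mmp2, 2.75 for Mmp3, 1.31 for Mmp15, -0.91 for Mmp28, -0.49 for Adam9, 0.91 for Adam15, 0.88 for Adam23, 1.00 for Adamts1, 2.00 for Adamts2, 1.68 for Adamts3, -1.56 for Adamts9, 0.48 for Adamts12, 0.50 for Timp2 and -2.43 for Timp3. Of the other 10, Adam12, Adam19, Adamts7, Adamts14, Adamts19 and Timp4 were higher and Mmp14, Mmp17, Mmp24 and Adam11 lower, and among them Adamts7 was called in the opposite direction with *ACVR1* R206H. With all samples DESeq2 called 20 members, 13 higher and 7 lower, among 4522 of 15385 genes. These were the 14 with Mmp14, Mmp17, Adam11, Adam12, Adamts14 and Timp4. In edgeR's test the count was 9 without *ACVR1* WT replicate 2 and 15 without replicate 3, among 1445 and 2739 genes. It was 8, 7 and 7 without replicates 1, 2 and 3 of *ACVR1* WT with H3.1K27M, among 1189, 1050 and 1037 genes, against 3533 with all samples. Mmp2, Adam15, Adam23, Adamts1, Adamts2, Adamts3 and Timp3 passed each time. Markers of neural progenitors and of other cell types also differed with H3.1K27M. Of 8 progenitor markers, Sox2 (-0.64) and Pax6 (-1.43) fell and none rose in *ACVR1* WT, and 4 fell and 2 rose there without replicate 1. In *ACVR1* R206H, Sox2 (-0.43), Pax6 (-0.82) and Prom1 (-0.79) fell and Vim (0.30) and Slc1a3 (0.62) rose. Neuron markers are given with Adam11, Adam22 and Adam23 below. The 8 microglial markers summed to 4.33 to 21.1 CPM in *ACVR1* WT and 6.94 to 8.26 in *ACVR1* R206H, against 1.33 to 1.92 and 2.10 to 3.32 with H3.1K27M, where 7 of the 8 were below 1 CPM. The exception, P2ry12, gave -0.09 with *ACVR1* WT and rose by 1.01 with *ACVR1* R206H (adjusted p = 0.005 by edgeR's test), where 2 of the 3 tested fell. The 6 endothelial markers summed to 5.05 to 15.5, 8.73 to 13.1, 4.94 to 5.16 and 6.31 to 8.74 CPM in the same order of groups. Flt1 made up most of these sums without H3.1K27M and fell with it in *ACVR1* R206H (-1.44), where Kdr rose (1.28, adjusted p = 0.0012 by edgeR's test) and Cdh5 and Tek, too low to test, averaged 0.118 and 0.150 CPM without and 0.711 and 0.619 CPM with it. The sums of the 4 choroid plexus markers overlapped, at 25.6 to 55.9, 18.7 to 37.2, 20.8 to 26.4 and 20.9 to 24.9 CPM, but 2 of these genes differed in opposite directions. Ttr, transthyretin, averaged 32.6 and 23.7 CPM without H3.1K27M and 2.48 and 0.978 CPM with it (-3.76 with *ACVR1* WT, adjusted p = 0.056, or -4.08, adjusted p = 0.0028, without *ACVR1* WT replicate 1, and -4.58 with *ACVR1* R206H, adjusted p = 6e-07 by edgeR's test). Otx2, a transcription factor, averaged 4.71 and 4.99 CPM without and 19.6 and 20.8 CPM with it (2.04, adjusted p = 0.0034, and 2.09, adjusted p = 3.3e-08 by edgeR's test). Without *ACVR1* WT replicate 1 the first was 2.23 (adjusted p = 3.4e-05 by edgeR's test). The part of these markers in the results was not tested.

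**Figure D2:**
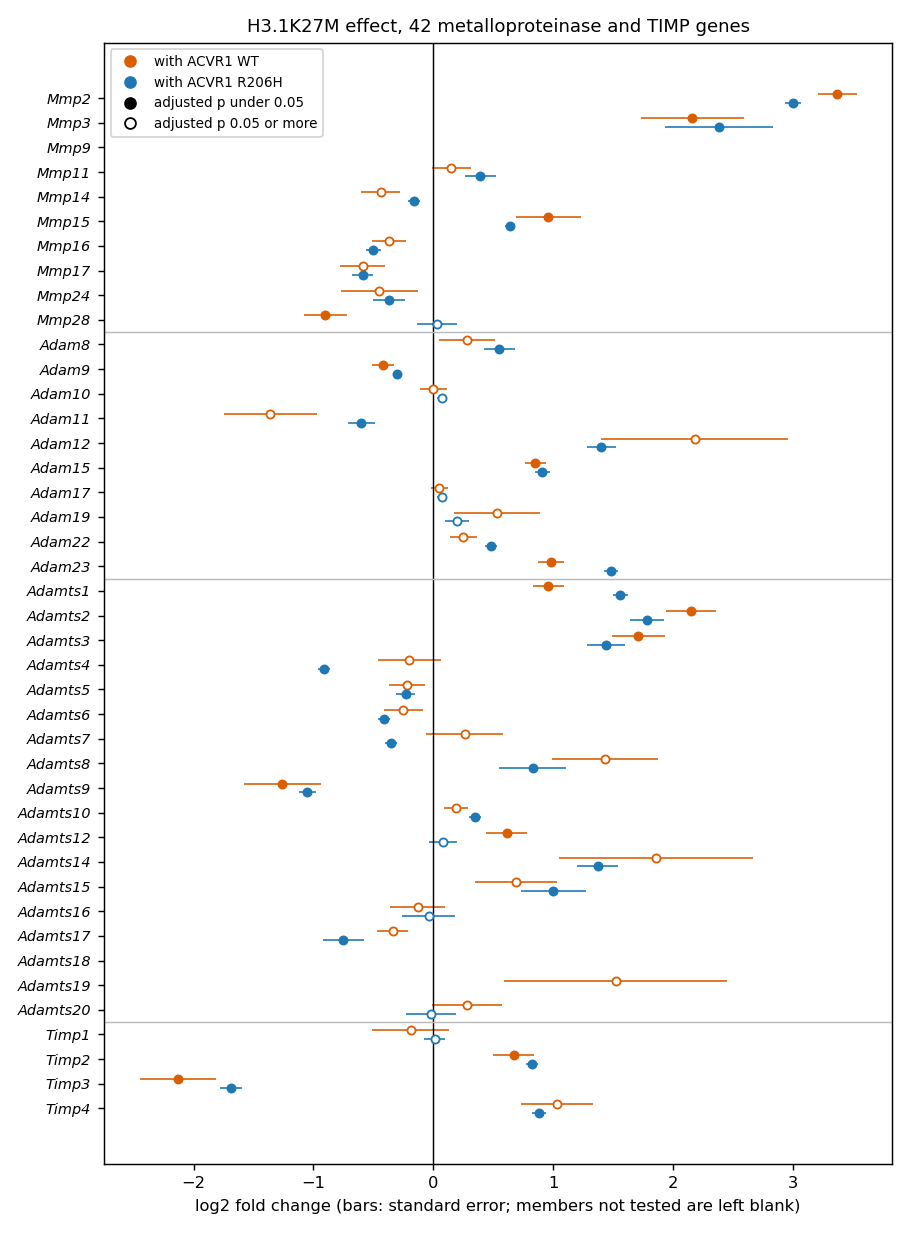
Log2 fold change with H3.1K27M against without it (horizontal axis) for the members, with *ACVR1* WT (orange) and with *ACVR1* R206H (blue). Bars are standard errors and filled points have an adjusted p under 0.05. Mmp2 lies farthest to the right at 3.37 and 3.00, and Timp3 farthest to the left at -2.13 and -1.69.

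Among the TIMPs, Timp1 (ENSMUSG00000001131, chromosome X, 20870166 to 20874735), which inhibits many soluble MMPs, measured 18.5, 7.53 and 10.8 CPM in the 3 *ACVR1* WT samples and 13.9, 13.5 and 16.2 in the 3 *ACVR1* R206H samples, in the order of replicates 1, 2 and 3 here and in what follows. With H3.1K27M it measured 10.2, 10.6 and 11.9 CPM with *ACVR1* WT and 15.4, 13.0 and 14.8 with *ACVR1* R206H. All other samples lay within the wide range of the *ACVR1* WT samples, and the 2 groups with H3.1K27M did not overlap. R206H raised Timp1 in the presence of H3.1K27M (log2 fold change 0.43, standard error 0.09, adjusted p = 0.0046 by edgeR's test). H3.1K27M itself gave -0.19 with *ACVR1* WT and 0.01 with *ACVR1* R206H on the log2 scale, neither past the test. The first turned without *ACVR1* WT replicate 1 to 0.24 (adjusted p = 0.26 by edgeR's test).

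Timp2 (ENSMUSG00000017466, chromosome 11, 118301069 to 118355740), an inhibitor that also takes part in the activation of pro-MMP2 at the cell surface, measured 139, 191 and 227 CPM in *ACVR1* WT and 178, 204 and 185 in *ACVR1* R206H. Its values with H3.1K27M were 296, 307 and 291 CPM with *ACVR1* WT and 331, 320.3 and 330.0 with *ACVR1* R206H. All 6 samples with H3.1K27M were above all 6 without it. Timp2 rose with H3.1K27M in *ACVR1* WT (log2 fold change 0.67, standard error 0.17, adjusted p = 0.037 by edgeR's test) and in *ACVR1* R206H (log2 fold change 0.82, standard error 0.05, adjusted p = 7.5e-08 by edgeR's test). The call in *ACVR1* WT was lost without *ACVR1* WT replicate 2 or any 1 of the 3 samples of *ACVR1* WT with H3.1K27M (0.65 to 0.69, adjusted p from 0.11 to 0.12 by edgeR's test). R206H added a small rise on top of H3.1K27M (log2 fold change 0.17, standard error 0.04, adjusted p = 0.007 by edgeR's test).

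Timp3 (ENSMUSG00000020044, chromosome 10, 86300372 to 86349506), which stays bound to the matrix and inhibits ADAMs as well as MMPs, ran the other way. It measured 315, 694 and 754 CPM in *ACVR1* WT and 427, 589.8 and 479.6 in *ACVR1* R206H, but 133, 146 and 128 in *ACVR1* WT with H3.1K27M and 155, 150.5 and 148 in *ACVR1* R206H with H3.1K27M. Every sample with H3.1K27M was below every sample without it. Timp3 fell with H3.1K27M to 0.229 of its level in *ACVR1* WT (log2 fold change -2.13, standard error 0.32, adjusted p = 0.0075 by edgeR's test) and to 0.310 in *ACVR1* R206H (log2 fold change -1.69, standard error 0.09, adjusted p = 3e-08 by edgeR's test). Without *ACVR1* WT replicate 1, whose value was the lowest of its group, the first of these was -2.43 (adjusted p = 7.3e-07 by edgeR's test). Within the H3.1K27M samples it rose slightly with R206H (log2 fold change 0.19, standard error 0.05, adjusted p = 0.018 by edgeR's test), a call lost without replicate 1 of *ACVR1* R206H with H3.1K27M (0.18, adjusted p = 0.071 by edgeR's test) or without replicate 3 of *ACVR1* WT with H3.1K27M (0.15, adjusted p = 0.066 by edgeR's test). Without H3.1K27M, R206H gave -0.24, which did not pass, and -0.54 (adjusted p = 0.019 by edgeR's test) without *ACVR1* WT replicate 1. Timp3 lies inside Syn3, and 21.3% of its exon bases are shared with exons of that gene, where reads counted for neither.

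Timp4 (ENSMUSG00000030317, chromosome 6, 115241892 to 115252205), a TIMP known from heart and brain, measured 221, 137 and 91.6 CPM in *ACVR1* WT and 205.96, 179 and 208 in *ACVR1* R206H. Its H3.1K27M samples measured 319, 317 and 291 CPM with *ACVR1* WT and 359, 341 and 369 with *ACVR1* R206H, above all those without H3.1K27M. R206H raised it in the presence of H3.1K27M (log2 fold change 0.24, standard error 0.04, adjusted p = 0.0022 by edgeR's test), and H3.1K27M raised it in *ACVR1* R206H (log2 fold change 0.88, standard error 0.06, adjusted p = 1.2e-07 by edgeR's test). In *ACVR1* WT the change with H3.1K27M was 1.03 and did not pass edgeR's test with all samples (adjusted p = 0.052, and 0.0038 with DESeq2), whereas it was 1.42 (adjusted p = 0.00014 by edgeR's test) without *ACVR1* WT replicate 1.

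**Figure D3:**
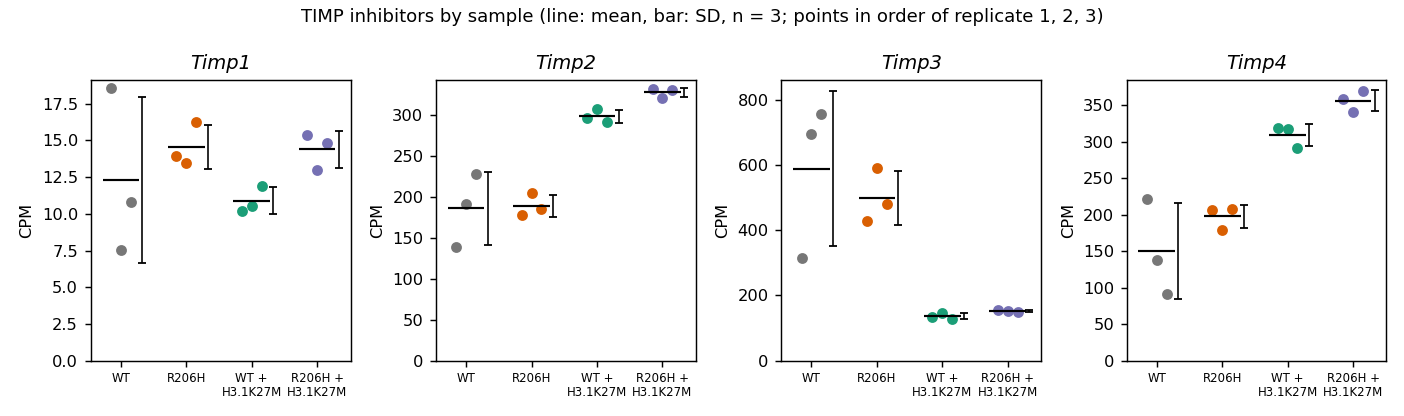
Level of each TIMP in CPM (vertical axis) in the 12 samples by group, with 3 points per group, the mean as a line and the SD as a bar. Timp3 is at 128 to 155 CPM in the samples with H3.1K27M and at 315 to 754 without, while Timp2 and Timp4 are higher in all samples with H3.1K27M.

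Of the proteoglycan-cleaving ADAMTS enzymes, Adamts1 (ENSMUSG00000022893, chromosome 16, 85793827 to 85803113) had the smallest p value for R206H in the presence of H3.1K27M. It measured 22.6, 18.4 and 23.6 CPM in *ACVR1* WT and 30.2, 26.8 and 31.9 in *ACVR1* R206H, then 41.4, 38.6 and 46.7 in *ACVR1* WT with H3.1K27M and 84.9, 84.2 and 87.6 in *ACVR1* R206H with H3.1K27M. The 4 groups did not overlap and stood in this order from low to high. Without H3.1K27M the R206H effect was 0.45 on the log2 scale (standard error 0.13, adjusted p = 0.94 by edgeR's test) and did not pass. Leaving out *ACVR1* WT replicate 1, it was 0.49 and passed (adjusted p = 0.028 by edgeR's test). With H3.1K27M Adamts1 rose with R206H (log2 fold change 1.05, standard error 0.06, adjusted p = 2.1e-07 by edgeR's test). The difference between the 2 effects, tested as an interaction, did not pass with all samples (0.60, adjusted p = 0.30 by edgeR's test). It passed without that replicate (0.57, adjusted p = 0.0092 by edgeR's test). H3.1K27M raised Adamts1 in *ACVR1* WT (log2 fold change 0.96, standard error 0.13, adjusted p = 0.005 by edgeR's test) and in *ACVR1* R206H (log2 fold change 1.56, standard error 0.06, adjusted p = 3.4e-09 by edgeR's test).

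Adamts4 (ENSMUSG00000006403, chromosome 1, 171250421 to 171260637), an aggrecanase, measured 88.7, 48.8 and 44.2 CPM in *ACVR1* WT and 74.6, 70.0 and 74.0 in *ACVR1* R206H. Its levels with H3.1K27M were 55.4, 51.9 and 52.6 CPM with *ACVR1* WT and 39.7, 38.4 and 36.3 with *ACVR1* R206H, the lowest of the 4 groups. R206H lowered it in the presence of H3.1K27M (log2 fold change -0.45, standard error 0.05, adjusted p = 6.1e-05 by edgeR's test), and H3.1K27M lowered it in *ACVR1* R206H (log2 fold change -0.91, standard error 0.05, adjusted p = 5.6e-08 by edgeR's test). Without H3.1K27M, R206H gave 0.26, which did not pass, and 0.64 (adjusted p = 0.0023 by edgeR's test) without *ACVR1* WT replicate 1. In *ACVR1* WT, where replicate 1 was far above the others, the change with H3.1K27M was -0.20 and did not pass, and without that sample it turned to 0.19 (adjusted p = 0.052 by edgeR's test).

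Adamts9 (ENSMUSG00000030022, chromosome 6, 92772699 to 92943492), a versican-cleaving enzyme, measured 34.2, 65.6 and 89.7 CPM in *ACVR1* WT and 48.9, 52.8 and 49.0 in *ACVR1* R206H. With the histone mutant Adamts9 measured 26.8, 26.8 and 26.04 CPM with *ACVR1* WT and 22.0, 25.6 and 23.6 with *ACVR1* R206H, so every sample with H3.1K27M was below every sample without. It fell with H3.1K27M in *ACVR1* WT (log2 fold change -1.26, standard error 0.32, adjusted p = 0.036 by edgeR's test) and in *ACVR1* R206H (log2 fold change -1.05, standard error 0.07, adjusted p = 1.4e-07 by edgeR's test). The first call was lost without any 1 of *ACVR1* WT replicates 2 and 3 or of the 3 samples of *ACVR1* WT with H3.1K27M (-1.27 to -0.92, adjusted p from 0.063 to 0.13 by edgeR's test). R206H gave -0.13 in the presence of H3.1K27M, which did not pass. Of the remaining enzymes of this kind, H3.1K27M with *ACVR1* R206H lowered Adamts5 (-0.23, adjusted p = 0.034 by edgeR's test) and raised Adamts8 (0.83, adjusted p = 0.026 by edgeR's test) and Adamts15 (1.00, adjusted p = 0.0075 by edgeR's test). Adamts8 and Adamts15 were below 2 CPM in every sample, Adamts5 and Adamts8 did not pass with DESeq2 (adjusted p 0.12 and 0.084), and Adamts20 passed in no comparison.

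The procollagen N-proteinases Adamts2, Adamts3 and Adamts14, which trim fibrillar procollagens, were higher with H3.1K27M in *ACVR1* R206H. Adamts2 (ENSMUSG00000036545, chromosome 11, 50602084 to 50807573) measured 1.41, 1.65 and 2.28 CPM in *ACVR1* WT and 2.21, 2.29 and 3.01 in *ACVR1* R206H, then 8.51, 7.98 and 7.48 in *ACVR1* WT with H3.1K27M and 8.56, 8.45 and 8.33 in *ACVR1* R206H with H3.1K27M. All samples with H3.1K27M were above all samples without it. Adamts2 rose in *ACVR1* WT (log2 fold change 2.15, standard error 0.21, adjusted p = 0.0021 by edgeR's test) and in *ACVR1* R206H (log2 fold change 1.78, standard error 0.14, adjusted p = 5.1e-07 by edgeR's test), and Adamts3 rose with both vectors as well, by 1.71 (adjusted p = 0.0044 by edgeR's test) and 1.44 (adjusted p = 1.3e-05 by edgeR's test). Adamts14 ranged from 1.12 to 10.6 CPM in *ACVR1* WT, 4.47 to 8.70 in *ACVR1* R206H and 14.6 to 19.9 over the 6 samples with H3.1K27M. It rose with H3.1K27M in *ACVR1* R206H (1.37, adjusted p = 3.1e-05 by edgeR's test). In *ACVR1* WT the change was 1.86 and did not pass edgeR's test (DESeq2 adjusted p = 0.045), and it was 3.67 (adjusted p = 4e-06 by edgeR's test) without *ACVR1* WT replicate 1. None of the 3 passed for R206H in the presence of H3.1K27M.

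Adamts7 (ENSMUSG00000032363, chromosome 9, 90163069 to 90208071) and Adamts12 (ENSMUSG00000047497, chromosome 15, 11064790 to 11349231), related enzymes that cleave cartilage oligomeric matrix protein, both fell with R206H in the presence of H3.1K27M. Adamts7 measured 72.2, 50.1 and 27.2 CPM in *ACVR1* WT, 57.2, 61.0 and 59.8 in *ACVR1* R206H, 62.6, 61.5 and 55.9 in *ACVR1* WT with H3.1K27M and 47.7, 44.0 and 45.2 in *ACVR1* R206H with H3.1K27M. Adamts12 measured 7.10, 9.70 and 9.17 CPM in *ACVR1* WT and 7.44, 8.21 and 8.07 in *ACVR1* R206H, and its samples with H3.1K27M measured 11.4, 14.9 and 13.6 with *ACVR1* WT and 7.75, 9.44 and 7.47 with *ACVR1* R206H. The R206H samples were below the WT samples for both genes once H3.1K27M was present. The changes were for Adamts7 (log2 fold change -0.36, standard error 0.05, adjusted p = 0.00045 by edgeR's test) and for Adamts12 (log2 fold change -0.66, standard error 0.12, adjusted p = 0.0021 by edgeR's test). Adamts7 also fell with H3.1K27M in *ACVR1* R206H (log2 fold change -0.35, standard error 0.05, adjusted p = 8.8e-05 by edgeR's test). In *ACVR1* WT it gave 0.26, which did not pass, and 0.63 (adjusted p = 0.037 by edgeR's test) without *ACVR1* WT replicate 1. Adamts12 rose with H3.1K27M in *ACVR1* WT (log2 fold change 0.61, standard error 0.17, adjusted p = 0.047 by edgeR's test), a call lost without any 1 of *ACVR1* WT replicates 2 and 3 or of the 3 samples of *ACVR1* WT with H3.1K27M (0.52 to 0.72, adjusted p from 0.077 to 0.17 by edgeR's test).

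Adamts6, Adamts10 and Adamts17 belong to a group tied to fibrillin microfibrils. Adamts17 ranged from 3.60 to 3.86 CPM in *ACVR1* WT with H3.1K27M and from 1.87 to 2.62 in *ACVR1* R206H with H3.1K27M, without overlap. It fell with R206H there (-0.68, adjusted p = 0.011 by edgeR's test), a call lost without replicate 3 of *ACVR1* R206H with H3.1K27M (-0.53, adjusted p = 0.06 by edgeR's test). H3.1K27M in *ACVR1* R206H lowered Adamts17 (-0.75, adjusted p = 0.0028 by edgeR's test) and Adamts6 (-0.41, adjusted p = 4.1e-05 by edgeR's test) and raised Adamts10 (0.35, adjusted p = 0.00011 by edgeR's test). Adamts16 passed in no comparison. Adamts19 was at no more than 0.996 CPM in any sample and did not pass where it was tested with all samples. For H3.1K27M with *ACVR1* WT it reached the count needed for a test only through the samples with H3.1K27M.

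**Figure D4:**
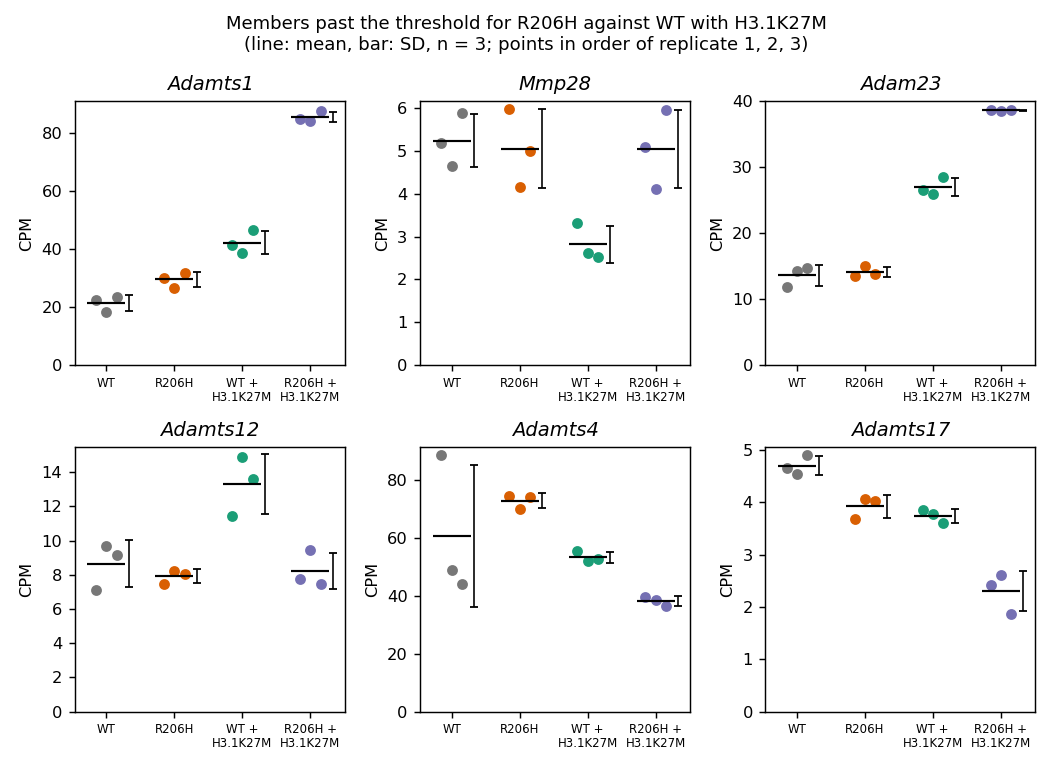
Level in CPM (vertical axis) in the 12 samples by group for 6 members past the threshold for *ACVR1* R206H against *ACVR1* WT with H3.1K27M, with the mean as a line and the SD as a bar. Adamts1, Mmp28 and Adam23 are higher and Adamts12, Adamts4 and Adamts17 lower in the 3 samples of *ACVR1* R206H with H3.1K27M than in those of *ACVR1* WT with H3.1K27M.

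Among the catalytically active ADAMs, Adam10 (ENSMUSG00000054693, chromosome 9, 70678997 to 70780229), a sheddase of Notch and of several cell adhesion molecules, measured 352, 273 and 277 CPM in *ACVR1* WT and 359.8, 337 and 349 in *ACVR1* R206H. Its levels under H3.1K27M were 300.1, 299.9 and 311 CPM with *ACVR1* WT and 360.2, 346 and 366 with *ACVR1* R206H. It rose with R206H in the presence of H3.1K27M (log2 fold change 0.27, standard error 0.04, adjusted p = 0.00025 by edgeR's test), and H3.1K27M itself gave 0.00 and 0.07 with the 2 vectors, neither past the test, the first being 0.13 without *ACVR1* WT replicate 1. Adam17, which sheds TNF and EGF receptor ligands, stayed between 149.8 and 173 CPM over the 12 samples and passed in no comparison.

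Adam9 (ENSMUSG00000031555, chromosome 8, 24949611 to 25016927), a broad sheddase with the highest 12-sample mean per kilobase, measured 348, 407 and 397 CPM in *ACVR1* WT and 369, 390.3 and 353 in *ACVR1* R206H. The H3.1K27M groups measured 293, 295 and 277 CPM with *ACVR1* WT and 297, 292 and 295 with *ACVR1* R206H, below all samples without it. Adam9 fell with H3.1K27M in *ACVR1* WT (log2 fold change -0.42, standard error 0.09, adjusted p = 0.018 by edgeR's test) and in *ACVR1* R206H (log2 fold change -0.30, standard error 0.04, adjusted p = 0.00011 by edgeR's test), and did not pass for R206H in either setting. The call in *ACVR1* WT was lost without *ACVR1* WT replicate 2 or any 1 of the 3 samples of *ACVR1* WT with H3.1K27M (-0.44 to -0.38, adjusted p from 0.074 to 0.092 by edgeR's test).

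Adam12 (ENSMUSG00000054555, chromosome 7, 133883199 to 134232146), which sheds heparin-binding EGF and marks mesenchymal cells, spread widely in *ACVR1* WT at 79.4, 17.4 and 8.06 CPM and measured 52.0, 34.6 and 52.9 in *ACVR1* R206H. It reached 156, 159 and 167 CPM in *ACVR1* WT with H3.1K27M and 124, 123 and 116 in *ACVR1* R206H with H3.1K27M. All samples with H3.1K27M were above all samples without it. Adam12 rose with H3.1K27M in *ACVR1* R206H (log2 fold change 1.40, standard error 0.12, adjusted p = 1e-06 by edgeR's test) and fell with R206H in the presence of H3.1K27M (log2 fold change -0.38, standard error 0.04, adjusted p = 7e-05 by edgeR's test). With *ACVR1* WT the change with H3.1K27M was 2.18 and did not pass edgeR's test (DESeq2 adjusted p = 0.045), and it was 3.65 (adjusted p = 1.4e-05 by edgeR's test) without *ACVR1* WT replicate 1. R206H without H3.1K27M gave 0.40, which did not pass, and 1.87 (adjusted p = 0.0062 by edgeR's test) without that sample.

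Adam15 (ENSMUSG00000028041, chromosome 3, 89338542 to 89349996), which carries an integrin-binding motif, measured 58.7, 47.9 and 56.2 CPM in *ACVR1* WT and 58.9, 56.9 and 67.6 in *ACVR1* R206H, against 102, 99.2 and 94.2 in *ACVR1* WT with H3.1K27M and 113, 105 and 119 in *ACVR1* R206H with H3.1K27M. Samples with H3.1K27M were again above all those without. It rose with H3.1K27M in *ACVR1* WT (log2 fold change 0.85, standard error 0.09, adjusted p = 0.003 by edgeR's test) and in *ACVR1* R206H (log2 fold change 0.91, standard error 0.06, adjusted p = 2.6e-07 by edgeR's test), and with R206H on top of H3.1K27M (log2 fold change 0.22, standard error 0.05, adjusted p = 0.0055 by edgeR's test). Of its exon bases, 20.6% are shared with another gene, and reads there were left out. Adam8 rose with H3.1K27M in *ACVR1* R206H (0.55, adjusted p = 0.0029 by edgeR's test), and Adam19 passed in no comparison with all samples.

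Adam11, Adam22 and Adam23 lack an active protease site and act as neuronal receptors for LGI proteins. Adam23 (ENSMUSG00000025964, chromosome 1, 63445891 to 63596276) measured 11.8, 14.3 and 14.8 CPM in *ACVR1* WT and 13.5, 14.97 and 13.8 in *ACVR1* R206H, then 26.6, 25.9 and 28.5 in *ACVR1* WT with H3.1K27M and 38.7, 38.5 and 38.6 in *ACVR1* R206H with H3.1K27M. The 2 groups without H3.1K27M overlapped, and those with it were above them and apart from each other. Adam23 rose with H3.1K27M in *ACVR1* WT (log2 fold change 0.98, standard error 0.11, adjusted p = 0.0036 by edgeR's test) and in *ACVR1* R206H (log2 fold change 1.48, standard error 0.06, adjusted p = 4.5e-09 by edgeR's test), and with R206H in the presence of H3.1K27M (log2 fold change 0.55, standard error 0.05, adjusted p = 2e-05 by edgeR's test). R206H without H3.1K27M gave 0.04, and -0.05 without *ACVR1* WT replicate 1, neither past the test.

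In the presence of H3.1K27M, R206H also raised Adam11 (0.42, adjusted p = 0.011 by edgeR's test) and Adam22 (0.20, adjusted p = 0.036 by edgeR's test), although the 2 groups overlapped for Adam22. Without H3.1K27M, R206H gave -0.33 for Adam11, which did not pass, and -0.68 (adjusted p = 0.027 by edgeR's test) without *ACVR1* WT replicate 1. The Adam11 call was lost without replicate 2 of *ACVR1* WT with H3.1K27M (0.39, adjusted p = 0.052 by edgeR's test). The Adam22 call was lost without replicate 1 or 2 of that group or replicate 2 or 3 of *ACVR1* R206H with H3.1K27M (0.15 to 0.21, adjusted p from 0.087 to 0.13 by edgeR's test). With H3.1K27M in *ACVR1* R206H, Adam22 rose (0.48, adjusted p = 1.2e-05 by edgeR's test) and Adam11 fell (-0.60, adjusted p = 0.00075 by edgeR's test). The 3 receptors therefore did not move together with H3.1K27M. Neurons also use these genes. The 6 neuron markers summed to 26.8 to 58.2 CPM in *ACVR1* WT, 32.0 to 37.6 in *ACVR1* R206H, 22.3 to 23.6 CPM in *ACVR1* WT with H3.1K27M and 26.1 to 28.3 CPM in *ACVR1* R206H with H3.1K27M, with 1 of the 6 at 0. They did not move together with H3.1K27M. Tubb3 fell with both vectors (-1.99 and -0.46), while Rbfox3, at 0.525 and 0.388 CPM without H3.1K27M, rose (1.74 and 2.18). In *ACVR1* R206H Gad1 also fell (-1.34) and Syt1 rose (0.91). Gad1 fell in *ACVR1* WT as well (-0.93) without replicate 1. The part of these markers in the result was not tested.

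Of the 10 Mmp members, Mmp2 (ENSMUSG00000031740, chromosome 8, 92827291 to 92853420), the gelatinase that cuts type IV collagen and is activated through Mmp14 and Timp2, changed most with H3.1K27M. It measured 3.81, 3.61 and 5.29 CPM in *ACVR1* WT and 5.33, 4.78 and 5.35 in *ACVR1* R206H, but 43.7, 45.5 and 43.9 in *ACVR1* WT with H3.1K27M and 39.3, 40.2 and 41.4 in *ACVR1* R206H with H3.1K27M. The 2 sets of 6 samples were far apart, with the lowest value with H3.1K27M at 39.3 CPM and the highest without at 5.35 CPM. Mmp2 rose 10.4-fold with H3.1K27M in *ACVR1* WT (log2 fold change 3.37, standard error 0.16, adjusted p = 0.00033 by edgeR's test) and 7.97-fold in *ACVR1* R206H (log2 fold change 3.00, standard error 0.07, adjusted p = 2.1e-10 by edgeR's test). R206H in the presence of H3.1K27M gave -0.11, which did not pass. Fibroblast and mural cells also use Mmp2. Their 8 markers summed to 9.61 to 12.9 CPM in *ACVR1* WT, 13.9 to 16.3 in *ACVR1* R206H, 19.1 to 21.04 in *ACVR1* WT with H3.1K27M and 29.8 to 35.0 in *ACVR1* R206H with H3.1K27M, with 3 to 6 of the 8 below 1 CPM per group. Rgs5, the highest of them at 8.08 CPM in *ACVR1* WT, gave 0.14 with H3.1K27M there and did not pass. Col1a1 (1.16), Col1a2 (2.50), Col3a1 (1.51) and Acta2 (2.01) rose there, 4 of 6 tested, also without *ACVR1* WT replicate 1. With *ACVR1* R206H all 5 tested rose, with a median of 1.55. The part of these markers in the result was not tested.

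Mmp3, a stromelysin, was low at 0.361 to 1.51 CPM in *ACVR1* WT, 0.632 to 0.728 in *ACVR1* R206H, 3.53 to 4.61 in *ACVR1* WT with H3.1K27M and 1.29 to 4.90 in *ACVR1* R206H with H3.1K27M. It rose with H3.1K27M in *ACVR1* WT (2.16, adjusted p = 0.017 by edgeR's test) and in *ACVR1* R206H (2.38, adjusted p = 0.00078 by edgeR's test). The first was 2.75 (adjusted p = 0.00018 by edgeR's test) without *ACVR1* WT replicate 1, and was lost without any 1 of the 3 samples of *ACVR1* WT with H3.1K27M (2.08 to 2.25, adjusted p from 0.064 to 0.075 by edgeR's test).

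Mmp28 (ENSMUSG00000020682, chromosome 11, 83440768 to 83463071), epilysin, measured 5.18, 4.64 and 5.87 CPM in *ACVR1* WT and 5.99, 4.16 and 5.01 in *ACVR1* R206H. Its level was lower in *ACVR1* WT with H3.1K27M at 3.32, 2.63 and 2.52 CPM, but not in *ACVR1* R206H with H3.1K27M at 5.09, 4.12 and 5.94 CPM. Mmp28 fell with H3.1K27M in *ACVR1* WT (log2 fold change -0.90, standard error 0.18, adjusted p = 0.017 by edgeR's test), gave 0.03 with *ACVR1* R206H, and rose with R206H in the presence of H3.1K27M (log2 fold change 0.87, standard error 0.17, adjusted p = 0.0026 by edgeR's test). The fall in *ACVR1* WT was lost without replicate 2 (-0.85, adjusted p = 0.085 by edgeR's test) or replicate 3 (-0.82, adjusted p = 0.082 by edgeR's test) of *ACVR1* WT with H3.1K27M. Mmp11, another secreted MMP, rose with R206H in the presence of H3.1K27M (0.31, adjusted p = 0.047 by edgeR's test) and with H3.1K27M in *ACVR1* R206H (0.39, adjusted p = 0.019 by edgeR's test). The first Mmp11 call was lost with DESeq2 and without replicates 1 or 2 of *ACVR1* R206H with H3.1K27M or 2 or 3 of *ACVR1* WT with H3.1K27M (0.26 to 0.29, adjusted p from 0.11 to 0.16 by edgeR's test), and the groups of the second overlapped.

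The membrane-type MMPs were lower with H3.1K27M in *ACVR1* R206H except for Mmp15. Mmp15 (ENSMUSG00000031790, chromosome 8, 95352268 to 95375080), the most abundant MMP per kilobase, measured 325, 212 and 147 CPM in *ACVR1* WT and 281, 274 and 276 in *ACVR1* R206H. The groups with H3.1K27M measured 461, 441 and 439 CPM with *ACVR1* WT and 428, 422 and 419.7 with *ACVR1* R206H, above all samples without it. It rose with H3.1K27M in *ACVR1* WT (log2 fold change 0.96, standard error 0.27, adjusted p = 0.048 by edgeR's test) and in *ACVR1* R206H (log2 fold change 0.64, standard error 0.04, adjusted p = 6.2e-08 by edgeR's test). The call in *ACVR1* WT was lost without *ACVR1* WT replicate 2 or any 1 of the 3 samples of *ACVR1* WT with H3.1K27M (0.91 to 0.98, adjusted p from 0.13 to 0.15 by edgeR's test).

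With *ACVR1* R206H, H3.1K27M lowered the transmembrane enzymes Mmp14 (-0.16, adjusted p = 0.016 by edgeR's test), Mmp16 (-0.50, adjusted p = 3.3e-05 by edgeR's test) and Mmp24 (-0.37, adjusted p = 0.026 by edgeR's test) and the lipid-anchored Mmp17 (-0.59, adjusted p = 0.00011 by edgeR's test). With *ACVR1* WT the changes were -0.44, -0.37, -0.45 and -0.59 on the log2 scale, and none passed edgeR's test on these 6 samples. DESeq2 called Mmp14 and Mmp17 (adjusted p 0.048 and 0.029), and edgeR's test with all 12 samples in 1 fit called Mmp14, Mmp16 and Mmp17 (adjusted p 0.013, 0.025 and 0.0082). Without *ACVR1* WT replicate 1, Mmp14, Mmp17 and Mmp24 passed (-0.57, -0.50 and -0.75) and Mmp16 did not (-0.32). None of the 5 membrane-type enzymes passed for R206H in the presence of H3.1K27M, where their log2 fold changes lay between -0.05 and 0.10.

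**Figure D5:**
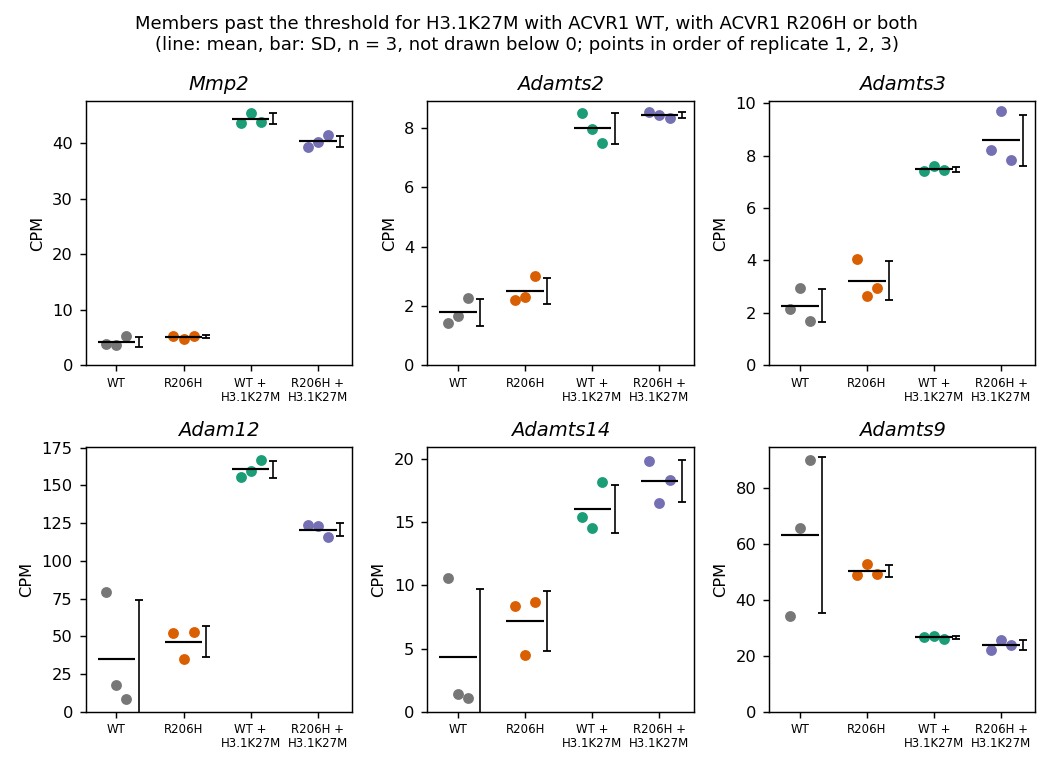
Level in CPM (vertical axis) in the 12 samples by group for 6 members past the threshold for H3.1K27M with at least 1 of the *ACVR1* vectors, with the mean as a line and the SD as a bar. Mmp2, Adamts2, Adamts3, Adam12 and Adamts14 are higher and Adamts9 lower in every sample with H3.1K27M than in any without it.

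Whether R206H acted differently with and without H3.1K27M was tested as an interaction over all 12 samples. No member of 40 passed the threshold in edgeR's test, against 0.0712% of 15445 genes (0.0583% positive and 0.0129% negative). An unadjusted p under 0.05 was found for 6 of the 40 members and 1183 of the 15445 genes. DESeq2 called 2, Adam23 (0.51, adjusted p = 0.027) and Adamts1 (0.60, adjusted p = 0.028). These had the smallest p values in edgeR's test as well, with interactions of 0.51 (standard error 0.12, adjusted p = 0.30 by edgeR's test) for Adam23 and 0.60 (standard error 0.14, adjusted p = 0.30 by edgeR's test) for Adamts1, followed by Mmp28 at 0.93 (standard error 0.26, adjusted p = 0.40 by edgeR's test). Without *ACVR1* WT replicate 1, 18 members passed, 10 with a positive and 8 with a negative interaction, 45% of 40 against 26.6% of 15459 genes. Those positive on the log2 scale were Adam11 (1.11), Mmp28 (0.95), Timp3 (0.74), Adam23 (0.60), Adamts1 (0.57), Adamts9 (0.52), Mmp14 (0.42), Timp2 (0.33), Adam22 (0.32) and Adamts10 (0.27). Those negative were Adamts19 (-4.56), Adamts14 (-2.30), Adam12 (-2.24), Adamts4 (-1.09), Adamts7 (-0.97), Adam19 (-0.87), Mmp15 (-0.66) and Timp4 (-0.54). Adamts19 was below 1 CPM in every sample.

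Genes that activate or inhibit these proteases were examined as a list of 27, of which 26 were tested for R206H in the presence of H3.1K27M. There 7 rose and 3 fell, beside a background of 11.4% and 8.95%. The 6 with the smallest p values were Serpinf1 (1.57), Tspan5 (-0.54), A2m (0.59), Tspan17 (0.61), Pcsk6 (0.50) and Pcolce (0.75), as log2 fold changes. A2m encodes alpha-2-macroglobulin, which traps many proteases, Pcsk6 a proprotein convertase, and Tspan5 and Tspan17 tetraspanins that accompany ADAM10, whereas Serpinf1 encodes a serpin without protease inhibition and Pcolce an enhancer of procollagen C-proteinase. With H3.1K27M, 5 rose and 3 fell of 26 in *ACVR1* WT, beside 12.6% and 10.4% of all genes, and 12 rose and 8 fell of 25 in *ACVR1* R206H, beside 29.1% and 27.4%. The count in *ACVR1* WT was 11 higher and 9 lower of 26 without *ACVR1* WT replicate 1, beside 26.9% and 25.6% of all genes. Those that rose in both included A2m (2.00 and 1.75), Serpinf1 (2.23 and 2.67), Serpine2, which inhibits plasminogen activators and thrombin (1.02 and 0.90), and Rhbdf2, which encodes the ADAM17 partner iRhom2 (3.03 and 3.20). Without that sample the values in *ACVR1* WT were 2.05 for A2m, 2.11 for Serpinf1, 1.07 for Serpine2 and 3.03 for Rhbdf2, all past the test. Rhbdf2 averaged 0.373 and 0.387 CPM without H3.1K27M and 3.13 and 3.51 CPM with it. It reached the count needed for these tests only through the samples with H3.1K27M.

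Of 26 substrates, 25 were tested. R206H in the presence of H3.1K27M raised 8 and lowered 3, beside 11.4% and 8.95% of all genes, with Ncan, the proteoglycan neurocan (1.25), Tnc, tenascin-C (0.83), Reln, reelin (1.02), App, the amyloid precursor (0.40), Jag1, a Notch ligand (0.69) and L1cam, an adhesion molecule (1.97) at the smallest p values. H3.1K27M raised 10 and lowered 3 of them in *ACVR1* WT, beside 12.6% and 10.4% of all genes, and raised 18 and lowered 5 in *ACVR1* R206H, beside 29.1% and 27.4%. The type IV collagen gene Col4a1, whose product Mmp2 cuts, rose by 1.53 and 1.58, and Nrg1, a growth factor shed by ADAMs, by 2.65 and 2.19. Vcan, versican, fell with both vectors (-0.89 and -0.90). In *ACVR1* WT without replicate 1, H3.1K27M raised 17 and lowered 5 of the 25, beside 26.9% and 25.6% of all genes, with Col4a1 at 1.53, Nrg1 at 3.09 and Vcan at -0.99. Medians over the substrates with H3.1K27M were 0.68 (1.01 without that sample) and 0.64 with the 2 vectors, against -0.02 and 0.00 over all genes.

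Of 25 other family members not among the 42, 9 or 10 were abundant enough to test. R206H in the presence of H3.1K27M raised Adamtsl3 (1.29), Mmp19 (0.60) and Adamtsl5 (0.96) and lowered Adamtsl2 (-0.70), 3 and 1 of 10 beside 11.4% and 8.95% of all genes. Adamtsl genes encode ADAMTS-like proteins without a protease domain. H3.1K27M raised Mmp10 (3.36), Adamtsl5 (1.40) and Mmp13 (1.87) of 10 in *ACVR1* WT and lowered none, beside 12.6% and 10.4% of all genes. In *ACVR1* R206H 4 of 9 rose, Adamtsl5 (1.96) and Mmp13 (2.63) among them, and 2 fell, beside 29.1% and 27.4%. Mmp10 averaged 0.0809 CPM in *ACVR1* WT and 0.896 CPM in *ACVR1* WT with H3.1K27M. Mmp13 averaged 0.261 and 0.153 CPM without H3.1K27M and 0.983 and 0.944 CPM with it. Both genes reached the count needed for these tests only through the samples with H3.1K27M, where they were higher. With *ACVR1* WT replicate 1 left out, 5 of 11 were higher and 3 lower with H3.1K27M in *ACVR1* WT, beside 26.9% and 25.6%, with Mmp10 at 3.48, Adamtsl5 at 1.38 and Mmp13 at 1.79. None of the 3 lists had a gene past edgeR's test for R206H without H3.1K27M or for the interaction with all samples. Without that replicate, R206H without H3.1K27M raised 3 and lowered 3 of 23 activators and inhibitors, raised 10 and lowered 3 of 23 substrates and raised 2 and lowered 1 of 9 other family members, beside 12.1% and 11% of all genes. The interaction was then positive for 5 and negative for 2 of 25 activators and inhibitors, positive for 4 and negative for 7 of 25 substrates and negative for 1 of 9 other family members, beside 13.6% and 13% of all genes.

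Among the 26 members with an upstream window, H3.1K27M in *ACVR1* R206H raised 7 and lowered 4 of 15 tested with a CpG ratio above 0.6, and raised 6 and lowered 1 of 10 with a lower ratio, beside 29.1% of all genes higher and 27.4% lower. Of the 4 sequences printed above, those of Adamts1, at 0.562, and Timp4, at 0.125, went with a rise for H3.1K27M in *ACVR1* R206H. Timp1, at 0.352, went with no call and Timp3, at 0.672, with a fall. The median ratio over all windows was 0.374. These counts are a description of windows and carry no test.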

How the data were processed

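RNAseq of 12 mouse samples was used. The authors mapped paired-end reads to mm10 (GRCm38) with RNA-STAR in Galaxy (STAR 2.6.0b-1 in the submitters' processing notes) and counted them per Ensembl gene with HTSeq-count in union mode, without strand and with reads of several matches or features left out. The deposited files hold these raw counts per gene and sample, not normalized and not pooled, and no column was left unused. Antisense or overlapping genes cannot be told apart by strand. Positions, symbols and exon lengths came from GENCODE M21 (same build), which held 54495 of the 54532 genes.

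Groups followed the labels, and the 42 members and all other gene lists were chosen with earlier results of these data known. Each comparison was fitted over all genes whose normalized counts averaged 10 or more, on its own 6 samples (interaction: all 12), with edgeR 4.0.16 in R 4.3.3 (TMM, quasi-likelihood F test, two-sided, Benjamini-Hochberg over all genes tested, threshold 0.05). The same scripts were tested on simulated data. CPM are edgeR's counts scaled to a common library size after TMM over the 12 samples, and the standard error is the size of the log2 fold change divided by the square root of F. Every member past the threshold is given, with values in every sample for the TIMPs, for the 12 smallest p values for R206H with H3.1K27M, for the most abundant member per kilobase of each protease family, and for the 12 smallest p values in the other comparisons. From each further list at most 6 genes with the smallest p values are named. Alternatives were DESeq2 1.42.0, its size factors in edgeR, a fit of unfiltered genes, a minimum of 10 counts in each sample, a replicate block, all 12 samples in 1 fit, and leaving out each sample in turn. Upstream windows came from RefSeq (GRCm38.p6). Depth was 19315020 to 26456257 counts, and both the 3 samples per group and, for members with few reads, the counts limit precision. Within groups no 2 samples agreed within sampling noise (chi-square per degree of freedom at least 2.93).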

Additional observations from a re-analysis of the deposited data

How the results depend on the processing

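The number of members past the threshold for R206H against WT with H3.1K27M was 17 and went to 5 with all 12 samples in 1 fit, where the number of genes past it went from 3185 to 440. For H3.1K27M with *ACVR1* WT it was 14, and 22 with all 12 samples in 1 fit (6335 genes against 3533). For H3.1K27M with *ACVR1* R206H the count went from 31 to 22 in that fit (5963 genes against 8745). For the interaction it was 0, and 2 with DESeq2 (97 genes against 11). For R206H without H3.1K27M, DESeq2 called 26 genes against 0 and no member. Leaving out 1 sample at a time gave 0 to 13 members for R206H without H3.1K27M, 15 to 17 with H3.1K27M, 7 to 24 for H3.1K27M with *ACVR1* WT, 27 to 30 for H3.1K27M with *ACVR1* R206H (31 with all samples) and 0 to 18 for the interaction. In the same order, 0 to 3485, 1915 to 2966, 1037 to 8115, 7589 to 8350 and 3 to 4112 genes passed. The values 13, 24 and 18 were those without *ACVR1* WT replicate 1, and the cause was not tested. No member past the threshold reversed its direction under any of these settings, while Timp1 and Adamts4, which were not past it for H3.1K27M with *ACVR1* WT, turned from -0.19 to 0.24 and from -0.20 to 0.19 without that sample.

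The labels give the groups the same replicate numbers. Deviations of same-numbered samples correlated between -0.16 and 0.48 without H3.1K27M and between -0.067 and 0.12 with it for the R206H comparisons, and between -0.031 and 0.082 for the H3.1K27M comparisons, so the numbers were not taken to pair the samples. Of the 6 samples, 4 and 3 were closest to their own number for R206H without and with H3.1K27M. For H3.1K27M with *ACVR1* WT and with *ACVR1* R206H these were 5 and 3. None of the 4 comparisons had all 6, and a fit with the replicate number as a block was kept as an alternative. With the replicate block, 0, 17, 10, 30 and 0 members passed for R206H without H3.1K27M, R206H with it, H3.1K27M with *ACVR1* WT, H3.1K27M with *ACVR1* R206H and the interaction, where Mmp15, Mmp28, Adam9, Adamts9 and Timp2 (H3.1K27M with *ACVR1* WT) and Adamts5 (with *ACVR1* R206H) did not pass with it (adjusted p from 0.051 to 0.07), and the genes for H3.1K27M with *ACVR1* WT went from 3533 to 2023 and for the interaction from 11 to 2.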
